A study of Mus musculus with 12 samples.

Results

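The 39 genes that flank Trim33 on mouse chromosome 3 were followed in cells labelled as blood monocytes in which Trim33 was targeted. They were taken as a list of symbols of genes lying around Trim33 that have a feature on the array, Trim33 itself not counted. All 39 were measured, of 23279 named genes in all, and 19 lie at lower and 20 at higher positions than Trim33 in the RefSeq gene order of assembly GRCm38.p6. The study compared 6 arrays of TRIM33 mice with 6 arrays of WT mice, all 12 with the strain label C57BL/6 LyzCre and an age of 6 to 8 weeks. In LyzCre mice the lysozyme gene drives Cre recombinase, chiefly in myeloid cells. The labels call the cells inflammatory blood monocytes, taken by cell sorting as CD11b+ CD115+ with high Ly6C. The titles call 2 arrays of each genotype mixes and the other 4 bear no such word. No label ties an array to 1 animal, so the p-values here rest on array-to-array spread, which may be technical.

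TRIM33 is a chromatin-binding protein with a ubiquitin ligase domain that reads histone tails and works with SMAD proteins. The genes around it are known from unrelated pathways. They include the small GTPase gene Nras, the phosphatase gene Ptpn22, a group of immunoglobulin superfamily surface proteins and the actin capping gene Capza1. Neighbouring genes can share a promoter region, as where their start sites lie close together on opposite strands. Such a pair holds Capza1, which encodes an alpha subunit of the heterodimer that caps actin filament ends, and St7l. Their annotated start sites lie 1 base apart, and the RefSeq windows from 250 bases before to 50 bases after each start, in build GRCm38.p6, share 100 bases. They are shown because Capza1 was the flanking gene with the largest genotype difference, and St7l is read from the other strand beside it. Each is printed 5′ to 3′ on its own strand, and capitals mark the bases that both windows hold, Capza1 at chr3:104864456-104864755 on the minus strand and St7l at chr3:104864256-104864555 on the plus strand.
Capza1: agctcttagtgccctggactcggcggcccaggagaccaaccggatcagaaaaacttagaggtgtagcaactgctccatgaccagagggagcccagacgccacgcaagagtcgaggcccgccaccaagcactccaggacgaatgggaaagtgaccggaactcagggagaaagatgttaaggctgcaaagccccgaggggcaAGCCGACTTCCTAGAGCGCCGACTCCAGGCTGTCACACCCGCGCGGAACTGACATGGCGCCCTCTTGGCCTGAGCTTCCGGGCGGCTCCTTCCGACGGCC
St7l: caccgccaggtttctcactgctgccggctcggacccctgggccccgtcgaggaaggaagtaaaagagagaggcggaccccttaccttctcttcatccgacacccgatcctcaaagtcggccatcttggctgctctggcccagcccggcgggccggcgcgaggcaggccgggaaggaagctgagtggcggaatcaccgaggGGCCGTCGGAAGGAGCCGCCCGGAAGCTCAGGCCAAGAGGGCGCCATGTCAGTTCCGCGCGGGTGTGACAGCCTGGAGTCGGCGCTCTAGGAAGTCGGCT
The Capza1 window held 21 CpG dinucleotides at 62.3% G and C, and the St7l window 28 at 67.0%, against medians of 7 and 52.7% over all 32851 windows of the table. The letters CAGAC or GTCTG, the core of the box that SMAD proteins bind, occurred 1 time in the Capza1 window, outside the shared bases, and not in the St7l window. Of all windows 49.6% hold them. The letters GGGCGG or CCGCCC, a GC box, occurred 1 time in each window. Both matches are the same site in the shared bases, read on opposite strands. Of all windows 35.7% hold these letters. These matches are letters in a window and do not show binding. A window was found for 34 of the 39 genes, the others being Man1a2, Cd2, Vangl1, Sike1 and Ampd1. A second pair on opposite strands, Dclre1b and Ap4b1, has annotated start sites 130 bases apart and windows that share 229 bases.

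The arrays were single-colour, and the values are log2 expression values after RMA, a method that adjusts background, equalises the distributions of the arrays and summarises probes. Clustering over all features, without use of genotype, parted the arrays into 2 sets of 6, and 3 arrays of each genotype fell in each. In the first, here the Xist set, the X inactivation transcript Xist read 9.01 to 10.18. In the second, here the Y set, it read 3.36 to 3.64. The Y-linked gene Kdm5d read 2.47 to 3.27 in the first and 5.73 to 6.77 in the second. Arrays of the same set correlated at 0.986 to 0.992, and arrays of different sets at 0.955 to 0.967. The mean of 4 markers of dividing cells was 9.86 to 9.99 on Xist set arrays and 3.81 to 5.79 on Y set arrays, and all 4 mixes lay in the Y set. The mean of 9 measured Ly6C-high monocyte markers was 10.69 to 11.33 on TRIM33 arrays and 10.62 to 11.21 on WT arrays, and that of 6 T cell markers was 3.31 to 4.23 on TRIM33 arrays and 3.32 to 4.15 on WT arrays. A sort of CD4 T cells is described in the treatment field, at odds with the source names and the design text, which give monocytes.

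Trim33 itself followed the labels on every array. It read 6.06 at the lowest, 6.11 at the median and 6.23 at the highest on the TRIM33 arrays, and 6.81, 6.92 and 7.05 on the WT arrays. The groups did not overlap. Trim33 fell by 0.79 on the log2 scale (SE 0.0671, limma, Benjamini-Hochberg adjusted p = 0.000637), to 57.8% of the WT level on a linear scale. The exact two-sided permutation test of the means gave p = 0.00216, the smallest that 924 assignments of the arrays allow with both signs counted. In the Xist set the difference was -0.79 and in the Y set it was -0.79. Since no source used here says which exons the probes or the deletion cover, this size does not measure the transcript that was left.

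The flanking genes were asked for the same contrast, TRIM33 minus WT. None of the 39 passed limma at a Benjamini-Hochberg adjusted p under 0.05, in a table where 0.0215% of genes did. Blocking by array set leaves the differences as they are and alters their errors, and 0 of 39 passed then, against 0.0387% of all genes. At an unadjusted p under 0.05 limma gave 1 of 39 without the block, where 3.07% of all genes had such a p, and 5 of 39 with it, where 5.28% did. Of these 5, 4 were lower on TRIM33 arrays, and 2.84% of all genes had such a p with a lower TRIM33 mean. A linear model without moderation also called 0. The differences were small for most, as over the whole array: 34 of 39 were under 0.2 in size, beside 20576 of all 23279 genes. The 95% interval of the blocked fit lay within 0.5 of zero for 33 of 39, beside 20545 of all genes. Such an interval bounds the change and does not show that there was none. Of the 39, 23 lay below 0 and 16 above, with a median of -0.04, beside 55.0% of all genes below 0 and a median of -0.01. The 19 genes at lower positions had a median of -0.02 and the 20 at higher positions -0.04.

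**Figure D1:**
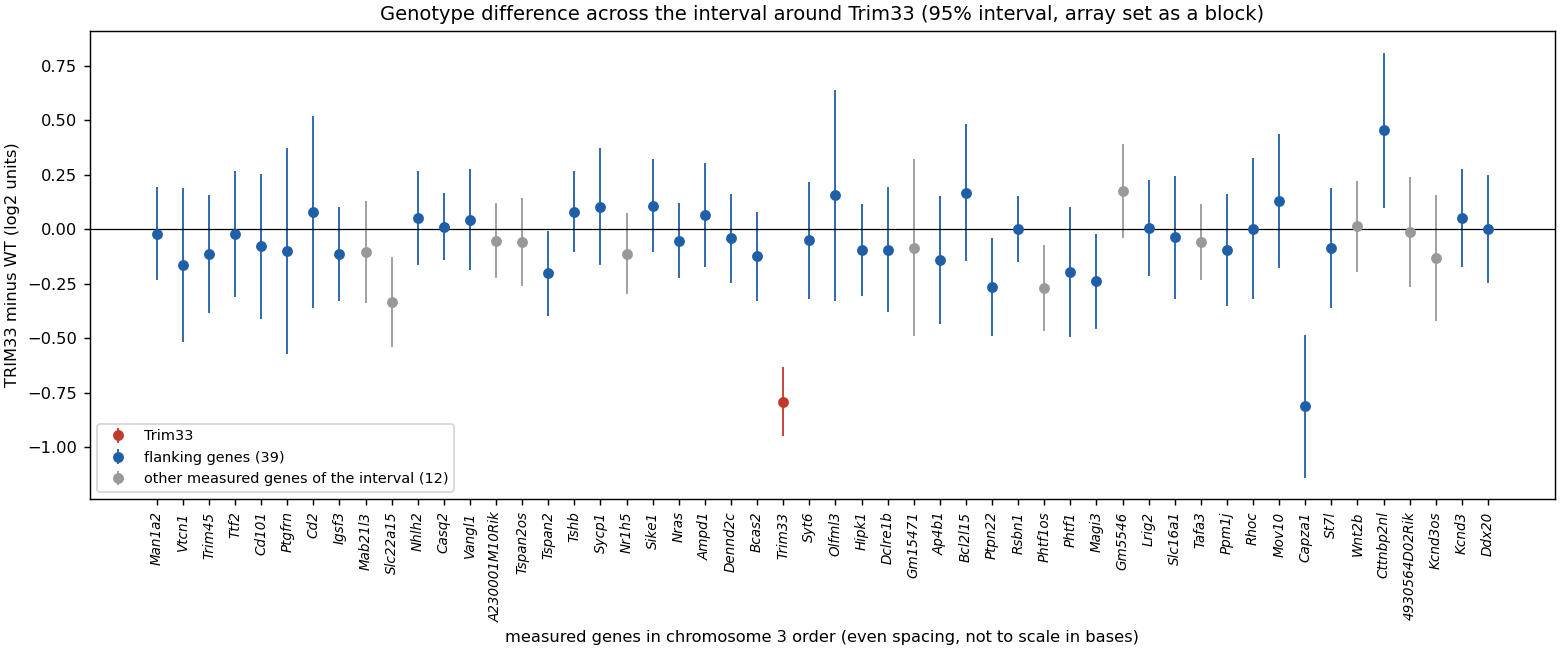
TRIM33 minus WT in log2 units (vertical axis) for the 52 measured genes of the interval in chromosome 3 order, evenly spaced. Points are differences of means over 6 arrays each and bars are 95% intervals of limma, blocked by array set. Trim33 at -0.79 and Capza1 at -0.81 stand below the other genes, which lie between -0.33 and 0.45.

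Capza1 was the exception in size. It read 7.08 at the lowest, 7.63 at the median and 7.75 at the highest on TRIM33 arrays, and 7.87, 8.40 and 8.70 on WT arrays. The highest TRIM33 array lay below the lowest WT array. Groups that did not overlap were found for 1 of the 39 genes and for 0.198% of all genes, or 0.0945% with TRIM33 lower. The difference was -0.81 (SE 0.166, limma adjusted p = 0.629), or 56.9% of the WT level on a linear scale, and it did not pass. With the array set as a block the SE was 0.153, the adjusted p 0.116 and the 95% interval -1.14 to -0.48. Ordered by p over all genes, Capza1 stood at place 11 without the block and 20 with it, and at place 3 and 4 among genes with a difference below 0. This difference was known when the gene list was drawn up, so its p is no independent support.

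The 2 array sets gave similar values for Capza1. In the Xist set its TRIM33 arrays read 7.41 to 7.75 and its WT arrays 8.09 to 8.70, a difference of -0.86 (SE 0.183). In the Y set its TRIM33 arrays read 7.08 to 7.74 and its WT arrays 7.87 to 8.63, a difference of -0.76 (SE 0.230). That the groups do not overlap within a set follows from their not overlapping over all 12 arrays. Neither set alone passed limma (adjusted p = 0.682 in the Xist set and 0.997 in the Y set, 3 arrays against 3). The 2 differences differed by 0.10 (Y set minus Xist set, SE 0.316, limma interaction adjusted p = 0.996). Over the mixes alone Capza1 differed by -0.60 and over the arrays not titled as mixes by -0.92, and neither passed.

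The measured genes on each side of Capza1 had smaller differences. Capza1 lies at higher positions than Trim33, with 19 measured genes between them, and its own neighbours are Mov10 and St7l. Mov10, an RNA helicase that restrains retroelements, read 5.87, 6.50 and 7.14 (lowest, median and highest) on TRIM33 arrays and 5.73, 6.25 and 7.09 on WT arrays, a difference of 0.13 (SE 0.262, blocked 95% interval -0.18 to 0.43). St7l, whose annotated start abuts that of Capza1 in the sequences above, read 6.09, 6.28 and 6.62 on TRIM33 arrays and 5.93, 6.41 and 6.79 on WT arrays. Its groups overlapped, and the difference of -0.09 had a blocked 95% interval of -0.36 to 0.19. In the Xist set St7l differed by 0.15 and in the Y set by -0.32, and the difference between the sets did not pass (-0.47, SE 0.236, limma interaction adjusted p = 0.996). The other pair with shared promoter bases were Dclre1b, a nuclease gene of telomere ends, at -0.09 (SE 0.137) and Ap4b1, of a vesicle adaptor complex, at -0.14 (SE 0.148), with overlapping groups in both.

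**Figure D2:**
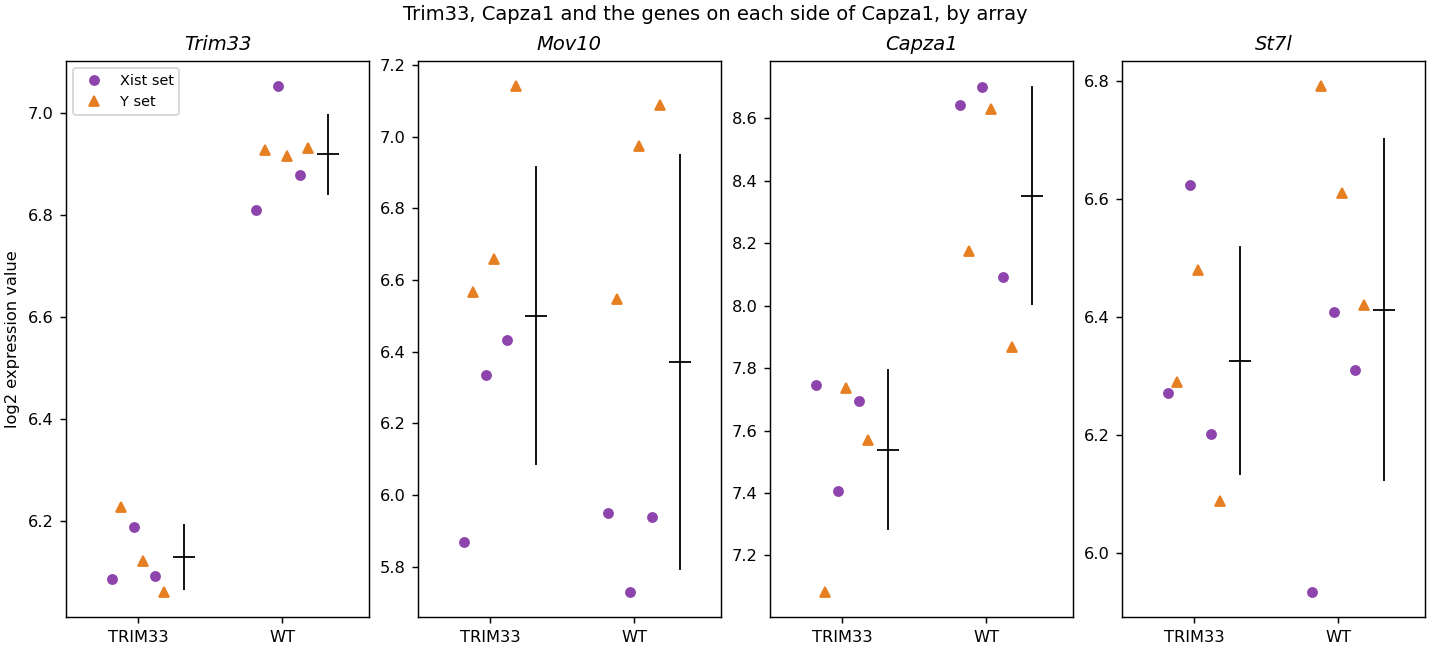
Log2 expression value of Trim33, Mov10, Capza1 and St7l on each array, with TRIM33 arrays left and WT arrays right in each panel. Circles are Xist set arrays, triangles are Y set arrays, and the bar gives the mean and SD of 6 arrays. The genotypes do not overlap for Trim33 and Capza1, overlap for Mov10 and St7l, and each panel has its own vertical range.

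The partners and relatives of Capza1, looked up after its values were seen, lie elsewhere in the genome. Capza2, the other widely expressed alpha subunit, read 10.02, 10.15 and 10.57 on TRIM33 arrays and 9.90, 10.15 and 10.33 on WT arrays, a difference of 0.13 (SE 0.113). Capzb, the beta subunit that pairs with either, differed by 0.02 (SE 0.0804), and Capg, a capping protein of macrophages, by 0.05 (SE 0.0818). Capza3, another alpha subunit, read 2.58 to 3.07 on TRIM33 arrays and 2.74 to 3.09 on WT arrays. Its mean was not above the median of all genes, and it differed by -0.02 (SE 0.0929). Their groups overlapped, and none passed limma (adjusted p = 1.0 for each).

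Another 4 flanking genes had an unadjusted p under 0.05 when blocked by array set and did not pass after adjustment. Ptpn22, which limits antigen receptor signalling in lymphocytes, read 8.09, 8.59 and 8.97 (lowest, median and highest) on TRIM33 arrays and 8.58, 8.71 and 9.18 on WT arrays, a difference of -0.27 (SE 0.105 with the block, limma adjusted p = 0.868). Within the Xist set its TRIM33 arrays read 8.09 to 8.28 and its WT arrays 8.58 to 8.71, without overlap, while in the Y set its TRIM33 arrays read 8.91 to 8.97 and its WT arrays 8.71 to 9.18, with overlap. The difference between the sets was 0.42 (Y set minus Xist set, SE 0.185, limma interaction adjusted p = 0.996), so the sets were not shown to differ for Ptpn22. Without TRIM33 replicate 6 the difference was -0.17 without the block and -0.22 with it. With the block and each array left out, the Ptpn22 difference lay between -0.36 and -0.22.

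Magi3, a scaffold of cell junctions, read 4.35, 4.55 and 4.76 on TRIM33 arrays and 4.42, 4.73 and 5.36 on WT arrays, a difference of -0.24 (SE 0.101 with the block, limma adjusted p = 0.920). Tspan2, a tetraspanin of the cell surface, read 3.93, 4.26 and 4.38 on TRIM33 arrays and 4.12, 4.37 and 4.60 on WT arrays, a difference of -0.20 (SE 0.0909, adjusted p = 0.936). For both, all 6 TRIM33 arrays lay below the WT mean, and the groups overlapped. Without WT replicate 2 the Magi3 difference was -0.13, or -0.16 with the block. Cttnbp2nl, a cortactin-binding protein of the actin cytoskeleton, was the flanking gene with the largest difference above 0. It read 3.73, 4.78 and 5.43 on TRIM33 arrays and 2.95, 4.22 and 5.27 on WT arrays, a difference of 0.45 (SE 0.166 with the block and 0.424 without it, adjusted p = 0.843 and 1.0). In the Xist set its TRIM33 arrays read 3.73 to 4.34 and its WT arrays 2.95 to 3.92, and in the Y set its TRIM33 arrays read 5.22 to 5.43 and its WT arrays 4.53 to 5.27. The genotypes overlapped in each set and the sets did not overlap. Without the block and with each array left out in turn, the Cttnbp2nl difference lay between 0.20 without WT replicate 2 and 0.67 without WT replicate 5. It was 0.30 without TRIM33 replicate 2, or 0.44 with the block. With the block and each array left out, the Cttnbp2nl difference lay between 0.33 and 0.55.

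By role, the 7 cytoskeleton, junction and trafficking genes included Capza1, Cttnbp2nl, Magi3 and Tspan2, with 6 differences below 0, beside 55.0% of all genes, and a median of -0.14. The groups by role were drawn up with the Capza1 difference known and were not tested. Man1a2, a Golgi mannosidase that trims glycans, read 6.94, 7.28 and 7.56 on TRIM33 arrays and 7.15, 7.25 and 7.61 on WT arrays, a difference of -0.02 (SE 0.127). Syt6, a synaptotagmin and the nearest measured gene to Trim33 at higher positions, read 3.17, 3.48 and 3.55 on TRIM33 arrays and 2.97, 3.47 and 3.93 on WT arrays, a difference of -0.05 (SE 0.139). For both, the range on 1 genotype's arrays covered most of the other's.

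The 11 signalling genes included Ptpn22, with 5 differences above and 6 below 0 and a median of -0.04. Nras, a Ras family GTPase that passes growth factor signals on, read 9.14, 9.31 and 9.35 on TRIM33 arrays and 9.11, 9.36 and 9.53 on WT arrays, a difference of -0.05 (SE 0.0808, blocked 95% interval -0.23 to 0.12). Hipk1, a nuclear kinase, read 9.50, 10.13 and 10.46 on TRIM33 arrays and 9.70, 10.11 and 10.44 on WT arrays, a difference of -0.09 (SE 0.0987 with the block). Sike1, which restrains kinases of the antiviral response, read 7.25, 7.69 and 7.87 on TRIM33 arrays and 7.18, 7.53 and 7.73 on WT arrays, a difference of 0.11 (SE 0.119). The genotypes overlapped for all 3 of these.

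Bcl2l15, a BCL2 family gene, read 2.59, 2.80 and 3.18 on TRIM33 arrays and 2.33, 2.68 and 3.10 on WT arrays, a difference of 0.17 (SE 0.150, adjusted p = 0.962 with the block). It differed by 0.09 without WT replicate 5, by 0.47 over the mixes alone and by 0.01 over the arrays not titled as mixes. Trim45, which like TRIM33 carries a RING finger, read 3.97, 4.24 and 4.45 on TRIM33 arrays and 3.95, 4.31 and 4.81 on WT arrays, a difference of -0.12 (SE 0.151). Rhoc, a GTPase of cell movement, read 4.05, 4.44 and 4.57 on TRIM33 arrays and 3.73, 4.36 and 4.97 on WT arrays, a difference of 0.00 (SE 0.173). The remaining signalling genes differed by -0.09 for Ppm1j, a phosphatase, -0.04 for Dennd2c, of a family that activates Rab GTPases, 0.00 for Lrig2, a membrane regulator of growth factor receptors, and 0.04 for Vangl1, of planar cell polarity.

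The 9 RNA and DNA genes had a median difference of -0.00, with 4 above and 5 below 0. Bcas2, a spliceosome subunit and the nearest measured gene to Trim33 at lower positions, read 7.67, 7.92 and 8.51 on TRIM33 arrays and 7.76, 8.10 and 8.67 on WT arrays, a difference of -0.12 (SE 0.0953 and limma adjusted p = 0.952 with the block). Phtf1, named as a putative homeodomain factor, read 5.49, 6.00 and 6.17 on TRIM33 arrays and 5.46, 6.20 and 6.50 on WT arrays, a difference of -0.20 (SE 0.139 with the block). Without the block and with each array left out, it lay between -0.33 without WT replicate 4 and -0.11 without TRIM33 replicate 1. With the block it lay between -0.31 and -0.13. For Bcas2 the range without the block was -0.22 without TRIM33 replicate 4 to -0.02 without WT replicate 2. With the block the Bcas2 range was -0.17 to -0.07. Rsbn1, a nuclear protein gene, read 7.29, 7.37 and 7.54 on TRIM33 arrays and 7.33, 7.37 and 7.43 on WT arrays. Its difference of 0.00 had a blocked 95% interval of -0.15 to 0.15, the narrowest of the 39. Ddx20, an RNA helicase of the SMN complex, differed by -0.00 (SE 0.116 with the block), Ttf2, which releases RNA polymerase from DNA, by -0.02 (SE 0.135), Sycp1, of the meiotic synaptonemal complex, by 0.10 (SE 0.126), and Nhlh2, a neuronal transcription factor, by 0.05.

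The 5 immunoglobulin superfamily genes had a median of -0.10, with 4 differences below 0. Igsf3 read 3.80, 4.31 and 4.35 on TRIM33 arrays and 4.05, 4.34 and 4.55 on WT arrays, a difference of -0.11 (SE 0.111), which was -0.03 without TRIM33 replicate 5, or -0.04 with the block. Vtcn1, an inhibitory ligand of T cells, read 3.68, 4.32 and 4.48 on TRIM33 arrays and 3.96, 4.36 and 4.91 on WT arrays, a difference of -0.17 (SE 0.175). Cd101, a surface receptor of myeloid and T cells, read 3.98, 4.69 and 5.06 on TRIM33 arrays and 3.95, 4.83 and 5.29 on WT arrays, a difference of -0.08 (SE 0.226). Cd2, an adhesion receptor of T and natural killer cells, differed by 0.08 (SE 0.660, or 0.205 with the block). Ptgfrn, a partner of tetraspanins, differed by -0.10 (SE 0.221 with the block).

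The 6 metabolic, transport and secreted genes had a median of 0.06, with 5 above 0. Olfml3, a secreted glycoprotein gene, read 5.01, 5.38 and 5.76 on TRIM33 arrays and 4.28, 5.34 and 6.04 on WT arrays, a difference of 0.16 (SE 0.243). The others were Tshb, the thyrotropin beta chain, at 0.08, Ampd1, an AMP deaminase of muscle, at 0.07, Kcnd3, a potassium channel, at 0.05, Casq2, the calcium store protein of heart muscle, at 0.01, and Slc16a1, a lactate transporter, at -0.04. Of the 39 genes, 10 had a mean value at or below the median of all genes, 4.24, where differences after RMA come out compressed: Nhlh2, Casq2, Vangl1, Tshb, Sycp1, Ampd1, Dennd2c, Syt6, Bcl2l15 and Ppm1j. For these a small difference says little about the transcript. Of these 10, 7 differences lay above 0, and of the other 29, 20 lay below 0 with a median of -0.08.

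The other 12 measured genes of the interval, taken by position, held 0 that passed limma in either fit, and 2 with an unadjusted p under 0.05 in each, beside 3.07% of all genes without the block and 5.28% with it. Slc22a15, a solute carrier at lower positions than Trim33, read 5.56, 5.67 and 5.88 on TRIM33 arrays and 5.73, 6.01 and 6.47 on WT arrays, a difference of -0.33 (SE 0.0964 with the block, adjusted p = 0.598). Phtf1os, a transcript named as opposite Phtf1, differed by -0.27 (SE 0.0927, adjusted p = 0.772), beside Phtf1 at -0.20 (SE 0.139, adjusted p = 0.946). No source used here says whether the probes tell the strands of this pair apart. Gm5546, next by p without the block, differed by 0.17 (SE 0.0996, adjusted p = 1.0). Of the 12, 10 lay below 0, with a median of -0.07, beside 55.0% of all genes below 0.

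Taken apart, the 2 array sets gave a genotype difference of the same sign for 20 of the 39 genes, beside 11940 of all 23279 genes. In the Xist set the genotypes did not overlap for 7 genes, all lower in TRIM33 arrays: Man1a2, Trim45, Nras, Ptpn22, Phtf1, Magi3 and Capza1. Beside these, 10.3% of all 23279 genes did not overlap there, 1363 lower and 1027 higher in TRIM33 arrays. In the Y set the genotypes did not overlap for 5, of which Capza1 was lower, and Vangl1, Tshb, Ampd1 and Kcnd3 were higher. For that set the share was 10.0% of all genes, 1265 lower and 1073 higher. Capza1 was in both, as a gene without overlap over all 12 arrays must be, and 0.735% of all genes were in both in the same direction. None of the 39 passed limma in either set (0.0129% of all genes in the Xist set and 0.0344% in the Y set), and an unadjusted p under 0.05 was found for 5 in the Xist set (4.99% of all genes) and 1 in the Y set (4.57%). A test of the difference between the sets called 0 of 39, where 0.0043% of all genes passed, and 2 had an unadjusted p under 0.05, where 4.21% of all genes did: Trim45 (0.50, Y set minus Xist set, SE 0.223) and Ptpn22.

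**Figure D3:**
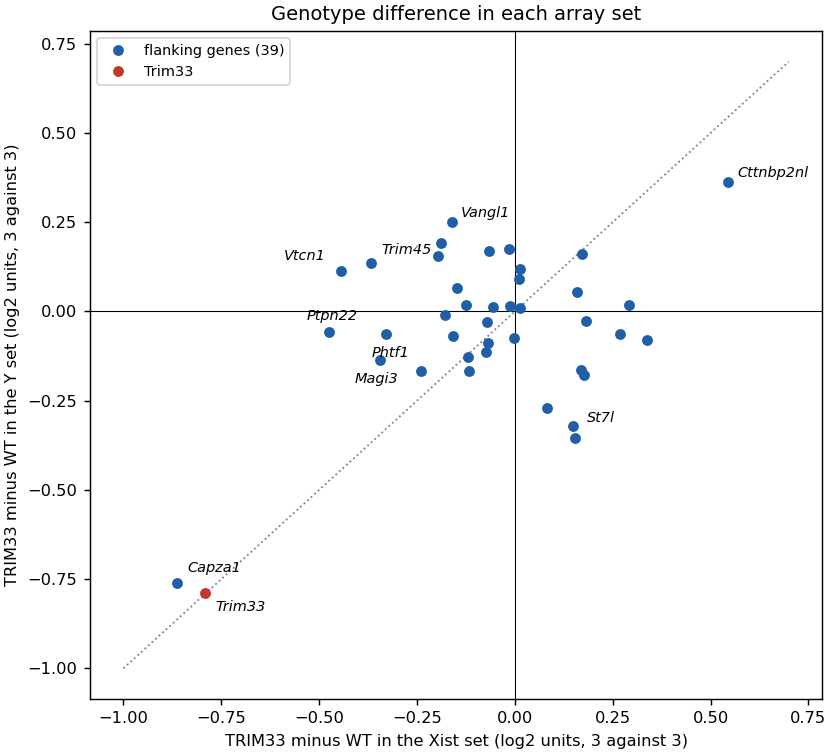
TRIM33 minus WT in log2 units in the Xist set (horizontal axis) and in the Y set (vertical axis), 3 arrays against 3 in each, for Trim33 and the 39 flanking genes. The dotted line marks equal differences. Trim33 at -0.79 in both sets and Capza1 at -0.86 and -0.76 lie near it at the lower left, Cttnbp2nl at 0.55 and 0.36 lies at the upper right, and the rest surround zero.

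Differences between the array sets, Xist set minus Y set, are given as a description, because the sets were drawn from the same values. For 10 of the 39 genes the sets did not overlap, beside 14.0% of all genes. Cd2 differed most, reading 3.42, 3.67 and 4.21 (lowest, median and highest) in the Xist set and 5.58, 5.79 and 6.67 in the Y set, a difference of -2.25. Cttnbp2nl read 2.95, 3.82 and 4.34 in the Xist set and 4.53, 5.24 and 5.43 in the Y set, a difference of -1.40. Mov10 read 5.73, 5.94 and 6.43 in the Xist set and 6.55, 6.81 and 7.14 in the Y set, a difference of -0.79. All 6 arrays of the Xist set lay below those of the Y set for these 3 genes, and so did those for Hipk1 (-0.58), Ptpn22 (-0.55) and Lrig2 (-0.28).

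For 4 genes the Xist set lay wholly above the Y set: Ttf2, Ddx20, Bcas2 and Slc16a1. Ttf2 read 5.30, 5.72 and 6.15 in the Xist set and 4.32, 4.61 and 4.70 in the Y set, a difference of 1.21. Ddx20 read 6.51, 6.66 and 7.05 in the Xist set and 5.59, 5.89 and 6.13 in the Y set, a difference of 0.82. Bcas2 differed by 0.61, with 8.08 to 8.67 on Xist set arrays and 7.67 to 7.95 on Y set arrays. The lactate transporter gene Slc16a1 read 4.68, 5.01 and 5.48 in the Xist set and 3.92, 4.10 and 4.20 in the Y set, a difference of 0.96. Ptgfrn, at -0.84, was among the 8 with the largest difference and overlapped between the sets, with medians of 3.92 in the Xist set and 4.74 in the Y set. Trim33 differed by -0.01 and Capza1 by 0.20 between the sets.

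**Figure D4:**
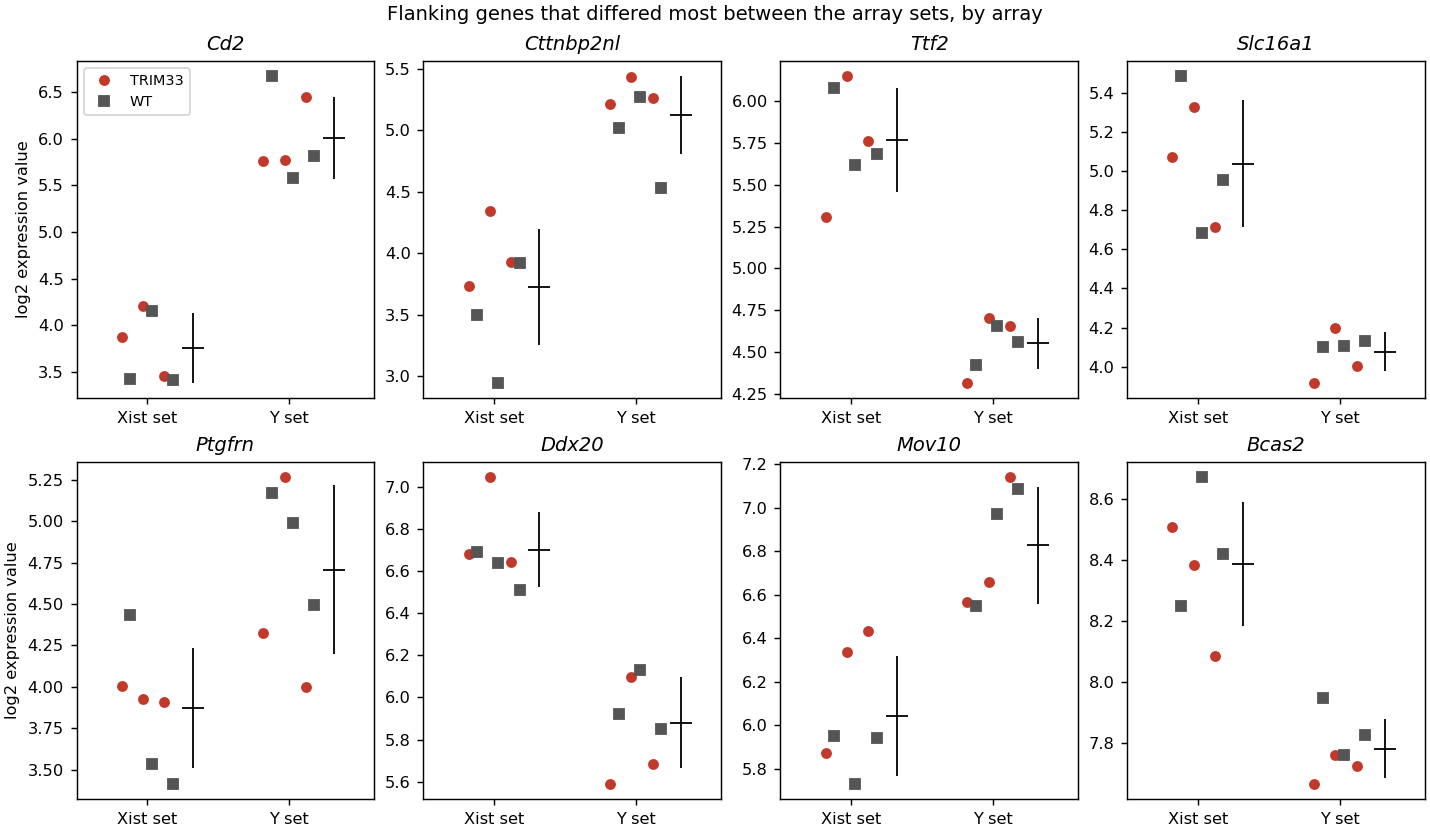
Log2 expression value on each array for the 8 flanking genes with the largest difference between array sets, Xist set left and Y set right in each panel. Circles are TRIM33 arrays, squares are WT arrays, and the bar gives the mean and SD of 6 arrays. Cd2, Cttnbp2nl and Mov10 are lower, and Ttf2, Slc16a1, Ddx20 and Bcas2 higher, on all 6 arrays of the Xist set, while Ptgfrn overlaps.

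Several marker lists differed between the array sets beside these genes. The mean of the Ly6C-high monocyte markers was 10.62 to 10.84 on Xist set arrays and 11.14 to 11.33 on Y set arrays, without overlap. The mean of the T cell markers was 3.31 to 3.59 on Xist set arrays and 3.74 to 4.23 on Y set arrays, with 5 of the 6 measured markers at a mean below the median of all genes. The mean of 4 platelet markers was 3.88 to 4.08 on Xist set arrays and 5.27 to 7.12 on Y set arrays, and the 1 measured red cell marker read 3.57 to 4.14 on Xist set arrays and 7.83 to 10.20 on Y set arrays. The mean of 8 neutrophil markers was 6.08 to 6.80 on Xist set arrays and 4.63 to 5.74 on Y set arrays, and that of 4 eosinophil markers 3.92 to 4.59 on Xist set arrays and 3.38 to 3.58 on Y set arrays. These 5 lists of other cells did not overlap between the sets, nor did the dendritic cell list, with 4.27 to 4.83 on Xist set arrays and 4.86 to 5.35 on Y set arrays. The B cell list read 4.30 to 4.64 on Xist set arrays and 4.59 to 5.42 on Y set arrays, and the natural killer cell list 4.45 to 4.97 on Xist set arrays and 4.45 to 5.02 on Y set arrays, with overlap in both. In bulk samples fewer cells of a type and less RNA per cell cannot be told apart, and the part of these cells in the values of Cd2 and the other genes was not tested. Between genotypes, TRIM33 minus WT, the list means differed by -0.19 for dendritic cell markers to 0.30 for neutrophil markers, and no marker passed limma.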

How the data were processed

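The deposited log2 values, 1 per gene-level feature named by Entrez number, were made by the authors with RMA and Partek, per the submitters' processing notes; their versions, the chip definition and the genome build were not given in the sources used here. Per the labels' protocols, 900 pg of RNA was amplified for each array. Arrays have no counting depth, so their number limits the precision. Of 24479 features, 23281 carried 1 symbol, 0 several and 1198 none; for 2 symbols with more than 1 feature the higher mean was kept. Gene order came from the RefSeq table of GRCm38.p6, which changed 0 symbols. TRIM33 and WT arrays were compared by limma 3.58.1 (lmFit, eBayes; R 4.3.3) over 23279 genes, without covariates, with Benjamini-Hochberg adjustment over all of them. Array sets came from average linkage on 1 minus the Pearson correlation. The fit was tested on simulated data. Named genes were Trim33, all members, the 8 with the smallest p in each of 2 fits, the 8 with the largest array set difference, and 3 interval genes. Capza2, Capza3, Capzb and Capg were chosen after the data were seen. The members, lists and array sets were chosen with earlier results of these data known. Alternatives covered blocks, subsets, normalization, filters, variance models and each array left out. Figures were drawn with matplotlib 3.10.9.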

Additional observations from a re-analysis of the deposited data

Results flagged for a closer look

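Over 80 groups of 6 arrays (Trim33 and the 39 flanking genes in each genotype), 4 held 1 array far from the other 5, by a gap past Dixon's 95% critical value. Chance flags about 1 in 20 groups. Ptgfrn read 5.26 on TRIM33 replicate 2, above 3.91 to 4.33 on the other TRIM33 arrays. Igsf3 read 3.80 on TRIM33 replicate 5, below 4.18 to 4.35 on the others, and without it the genotype difference was -0.03 in place of -0.11. Man1a2 read 7.61 on WT replicate 6, above 7.15 to 7.30 on the other WT arrays. Tshb read 2.99 on WT replicate 2, below 3.19 to 3.26 on the others, all near the low end of the scale. None of these genes passed the genotype test with all arrays.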

How the results depend on the processing

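No flanking gene and no other interval gene passed limma in any alternative run, and Trim33 and the 9 flanking genes with the smallest p in either fit (Capza1, Cttnbp2nl, Ptpn22, Magi3, Tspan2, Phtf1, Bcl2l15, Bcas2 and Igsf3) kept their sign in them; the other 30 flanking genes were not followed through every setting. Trim33 lay between -0.83 and -0.76 over 39 settings and passed in 35. It did not pass in the Xist set alone (-0.79, limma adjusted p = 0.227), in the Y set alone (-0.79, adjusted p = 0.134), over arrays not titled as mixes (-0.77, adjusted p = 0.155) or over the mixes alone with the mix number as a replicate block (-0.83, adjusted p = 0.567), each with fewer arrays. Over genes, the deviations of same-numbered mixes from the mean of their genotype's mixes correlated between genotypes at r = 0.118. The 2 pairs are too few to show whether the numbers pair the arrays, and the mixes are taken to share only a number. With each array left out, Trim33 lay between -0.81 and -0.76. Capza1 lay between -0.92 and -0.60 over all settings; with each array left out it lay between -0.91 and -0.72, and with the array set blocked as well, between -0.90 and -0.73 (limma adjusted p 0.0944 to 0.402). The count over all genes was 5. It was 9 with the array set as a block, 3 in the Xist set alone, 8 in the Y set alone, 10 with the mixes' replicate block, 0 without the mixes and 3 without moderation. With each array left out it was 5 to 9, with 9 without TRIM33 replicate 4. Leaving out each array from the blocked fit, chosen after seeing the data, gave 9 to 15, with 12 without TRIM33 replicate 3 and 15 without TRIM33 replicate 4, and quantile normalization with that block, also chosen then, gave 9. Limits are that 6 arrays a genotype, 3 in each set, bound the precision, that RMA compresses dim genes, and that separate animals are not stated.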
